A study of Mus musculus with 6 samples.

Results

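The ATP-binding cassette (ABC) genes and the solute carrier organic anion (Slco) genes were examined in adult mouse kidney: all genes whose symbols carry the ABC subfamily letters A to G or the Slco prefix, 63 of the 22180 genes measured. Of these, 48 were ABC genes and 15 were Slco genes. Each gene was read from 1 transcript cluster, a set of probes spread over its transcripts; a member with more than 1 cluster, Slco2b1 alone here, was read from the brightest. Total RNA of part of a kidney was hybridised to the Mouse Gene 2.1 ST array of Affymetrix, with 1 sample on each array. The group labelled dKO held 3 arrays (1, 3 and 5) from mice homozygous for floxed Pax2 and Pax8 alleles that also carried Rosa26CreER, a tamoxifen-activated Cre recombinase expressed from the ubiquitous Rosa26 locus. The control group held 3 arrays (2, 4 and 6) from Cre-negative mice. Both groups received tamoxifen in corn oil into the peritoneum, 50 mg/kg a day for 3 days, in a first course at the age of 8 weeks and a second at 10 weeks. Tissue was collected 14 days after treatment ended. Array dKO 1 and array Control 4 came from males and the other 4 from females. Nothing in the labels says that each array was a separate animal, so the p-values speak only of the spread among these samples, which may be technical. In RNA from part of a kidney, fewer cells of a type and less RNA per cell cannot be told apart.

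ABC proteins use ATP to move lipids, drugs, conjugates, peptides or metals across membranes, and the E and F subfamilies are soluble proteins that act on ribosomes instead. Slco genes encode organic anion transporting polypeptides, which take up bile salts, steroid conjugates, thyroid hormones, prostaglandins and drugs without using ATP. In the proximal tubule, uptake carriers of the basolateral side and ABC pumps of the brush border together secrete organic anions and drugs into the urine, and several of these genes are known to differ between male and female rodents.

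The promoters of 6 genes are shown because they belong to neighbouring paralogues with unlike values on these arrays, or to Abca1 and Slco4a1, whose calls held with any 1 array left out. Abcb1a and Abcb1b lie next to each other on chromosome 5, and Slco1a1 and Slco1a6 lie in the Slco1 cluster on chromosome 6. RefSeq promoter sequences of build GRCm38.p6 were found for 51 of the 63 members. The 250 bases before the listed start are printed 5′ to 3′ on the gene's strand, with capitals marking matches to the motifs searched.
Abcb1a, chr5:8566841-8567090, plus strand: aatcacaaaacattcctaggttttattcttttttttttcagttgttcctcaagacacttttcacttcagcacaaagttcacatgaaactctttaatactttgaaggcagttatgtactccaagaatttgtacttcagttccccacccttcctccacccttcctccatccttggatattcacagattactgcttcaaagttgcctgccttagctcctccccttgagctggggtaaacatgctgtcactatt
Abcb1b, chr5:8797897-8798146, plus strand: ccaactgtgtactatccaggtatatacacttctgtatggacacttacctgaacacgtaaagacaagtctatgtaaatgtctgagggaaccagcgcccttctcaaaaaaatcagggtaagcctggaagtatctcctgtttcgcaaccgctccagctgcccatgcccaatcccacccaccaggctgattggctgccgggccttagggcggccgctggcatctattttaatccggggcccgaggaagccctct
Slco1a1, chr6:141946963-141947212, minus strand: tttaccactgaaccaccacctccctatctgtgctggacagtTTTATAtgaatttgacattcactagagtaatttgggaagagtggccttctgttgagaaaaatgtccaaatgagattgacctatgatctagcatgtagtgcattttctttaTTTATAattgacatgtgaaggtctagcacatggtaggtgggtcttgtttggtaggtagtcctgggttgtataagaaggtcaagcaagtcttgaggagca
Slco1a6, chr6:142186150-142186399, minus strand: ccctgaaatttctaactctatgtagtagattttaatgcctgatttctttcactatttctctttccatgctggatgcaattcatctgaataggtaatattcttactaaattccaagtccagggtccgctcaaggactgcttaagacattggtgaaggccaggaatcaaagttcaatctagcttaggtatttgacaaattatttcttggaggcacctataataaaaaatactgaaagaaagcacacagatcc
Abca1, chr4:53159896-53160145, minus strand: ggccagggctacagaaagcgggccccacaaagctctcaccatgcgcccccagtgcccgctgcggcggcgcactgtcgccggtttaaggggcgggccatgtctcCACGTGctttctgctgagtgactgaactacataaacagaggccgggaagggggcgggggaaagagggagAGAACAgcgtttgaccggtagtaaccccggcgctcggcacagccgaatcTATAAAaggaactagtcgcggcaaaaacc
Slco4a1, chr2:180455995-180456244, plus strand: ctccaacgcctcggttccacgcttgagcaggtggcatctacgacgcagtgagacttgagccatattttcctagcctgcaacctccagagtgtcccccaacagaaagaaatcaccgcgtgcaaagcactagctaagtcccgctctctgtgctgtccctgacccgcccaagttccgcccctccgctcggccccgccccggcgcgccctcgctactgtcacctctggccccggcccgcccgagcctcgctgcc

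Abcb1a and Abcb1b differed in base content. Abcb1a had no CpG dinucleotide in this window (0 CpG, 40.4% GC) and Abcb1b had 9 (52.8% GC). Slco1a1 and Slco1a6 were both poor in CpG, with 0 and 1 (40.4% and 36.4% GC). Abca1 held 20 and Slco4a1 held 21. The median was 9 CpG over the 51 members and 6 over 27025 RefSeq promoters. Globally aligned, the windows of Abcb1a and Abcb1b were identical in 49.3% of columns, and those of Slco1a1 and Slco1a6 in 51.4%. Unrelated promoters were not aligned, so these shares have no baseline and no conservation is read from them.

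Motifs were searched on both strands in the same 250 bases. TATAAA, the TATA box, was found in 9 of 51 member promoters and 13% of all promoters. Abca1 carried it on its own strand 29 to 24 bases before the start, and Slco1a1 carried it on the opposite strand at 209 to 204 and at 99 to 94 bases before the start. CACGTG, an E-box, was found in 5 of 51 member promoters and 6.05% of all, and lay 147 to 142 bases before the Abca1 start. AGAACA, a steroid receptor half-site, was found in 9 of 51 and 16.2% of all, and lay 78 to 73 bases before the Abca1 start. TGACNNNGC, the antioxidant response core, was found in 6 of 51 members and 10.1% of all, but in none of the 6 promoters shown. GTCACGC, the core bound by the paired domain of Pax2 and Pax8, was found in 0 of 51 member promoters and 1.88% of all. No motif overlapped another in the promoters shown.

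The targeted genes were checked before the transporters. Pax8 stood at 10.11, 10.59 and 10.39 log2 on arrays dKO 1, 3 and 5 and at 9.09, 9.0 and 8.89 on controls 2, 4 and 6. It was thus higher, not lower, on the arrays labelled dKO (limma adjusted p = 0.0037). Pax2 stood at 6.11, 6.49 and 6.16 against 6.09, 5.77 and 6.08 and did not pass (adjusted p = 0.19). Neither labels nor design text name the exons removed, and a probe that lies elsewhere in the gene is no check of genotype. Higher and lower refer from here on to the arrays as labelled. Array medians lay between 3.81 and 3.87 log2. Adipocyte RNA varied between arrays: the summed adipocyte signal was 11.07 and 10.8 log2 on controls 2 and 6 and 9.83 on control 4. On the arrays labelled dKO it ranged from 10.12 to 10.74, and 0 of 9 adipocyte genes passed. Of 6 measured genes that define the thick ascending limb, distal tubule, collecting duct and glomerulus, none was dim, and Aqp2, the collecting duct water channel, fell (-0.88 ± 0.16, SE). Adrenal cortex signal was low, with 6 of 7 adrenal genes below the dim limit used here, 3.25 log2. That limit is the 90th percentile of 1394 olfactory and vomeronasal receptor genes.

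Between the arrays labelled dKO and the controls, 7 of the 63 transporter genes passed limma's test at an adjusted p of 0.05, 3 higher and 4 lower. The pumps that rose were Abca1, Abca9 and Abcb1b, between 1.59-fold and 3.39-fold. The members that fell were Slco4a1, Abcd4, Slco1a6 and Abca2, between 1.33-fold and 2.02-fold. The share of members called was 11.1%, beside 7.2% of all genes (4.12% higher and 3.08% lower). The members' median log2 fold change was 0.02, and that of all genes was -0.01. The 3 arrays of each group did not overlap for 15 members, 5 higher and 10 lower; this was 23.8% of the members and 22.5% of all genes. These shares stand near those of all genes, and nothing is read from the members as a group. Of the 63 members, 45 had a mean at or above the dim limit and 18 lay below it. The 7 called members were among the 45; of all genes at or above the limit, 9.96% were called.

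**Figure D1:**
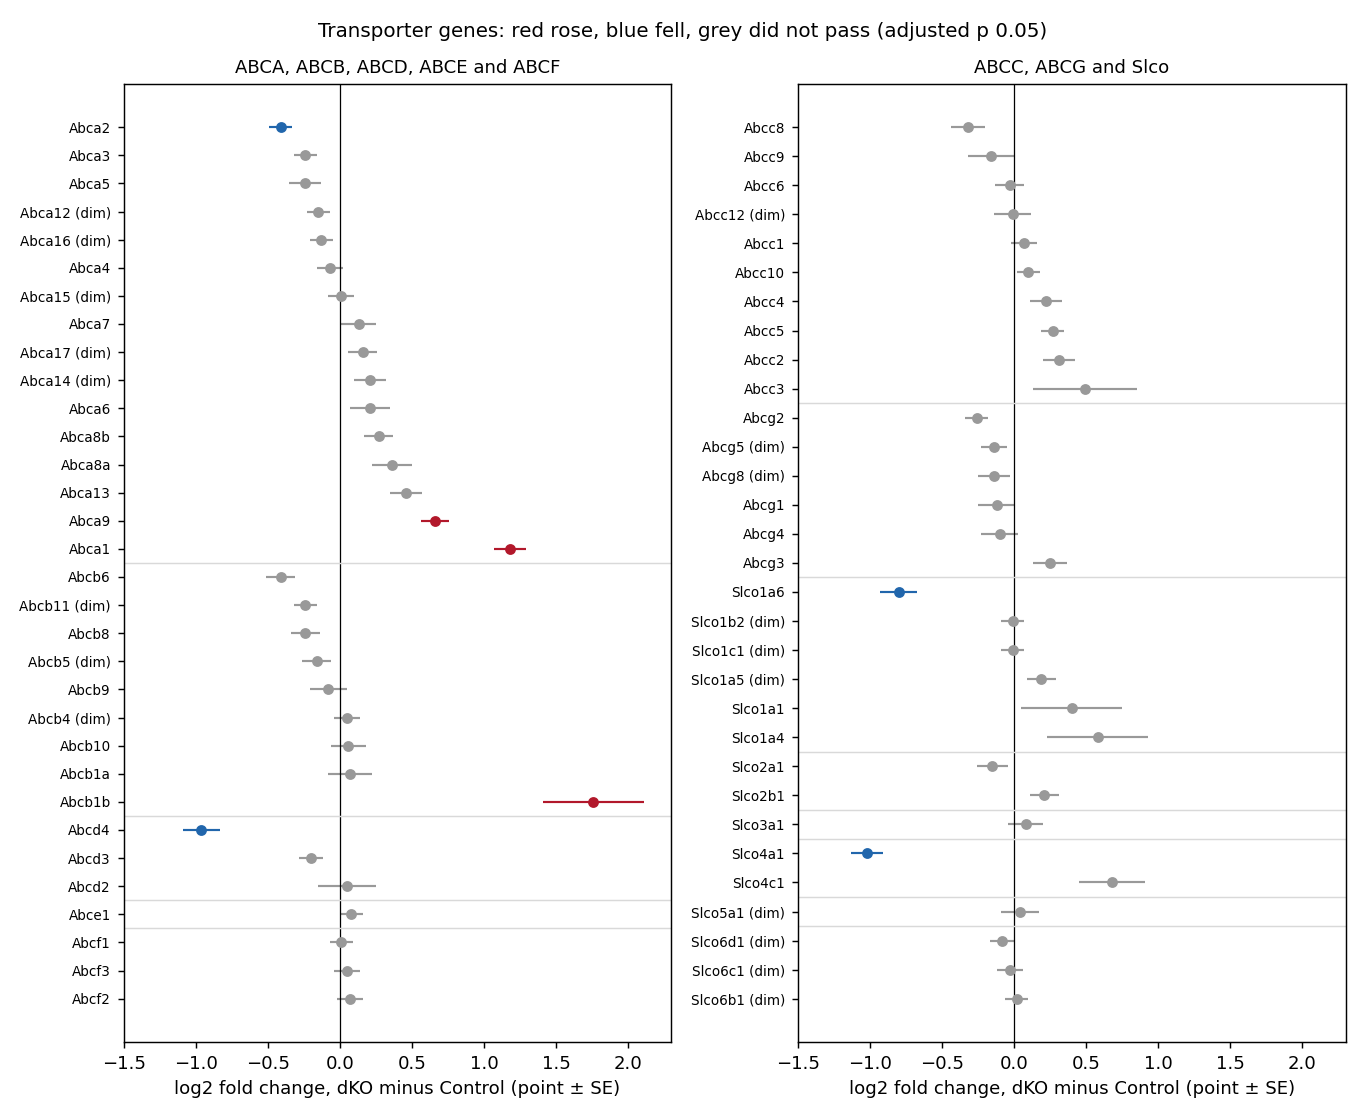
Log2 fold change (point) with its standard error (bar) for each of the 63 transporter genes, the arrays labelled dKO minus controls adjusted for sex, ordered within subfamilies that grey lines separate. Red genes rose, blue genes fell and grey genes did not pass; "dim" marks the 18 genes with a mean below 3.25 log2. Abcb1b and Abca1 lie farthest to the right and Slco4a1 and Abcd4 farthest to the left.

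The ABCA subfamily moves lipids. Of its 16 members 2 rose and 1 fell (18.8% called, beside 7.2% of all genes), with a median of 0.14. Abca1 (Entrez gene 11303), which loads cholesterol and phospholipid onto apolipoprotein A-I, stood at 7.41, 7.89 and 7.72 log2 on arrays dKO 1, 3 and 5. The controls 2, 4 and 6 stood at 6.42, 6.4 and 6.66. The dimmest array labelled dKO lay above the brightest control, and the difference was 1.01 in the male pair and 1.27 in the females. The group means were 7.68 ± 0.25 and 6.49 ± 0.15 (SD, n = 3), a log2 fold change of 1.18 ± 0.11 (SE) or 2.27-fold (limma adjusted p = 0.0042). The call held in 6 of 6 fits with 1 array left out, with adjusted p up to 0.029. For genotype, here and below, leaving out either male array gives the same females-only result, so these fits are not all distinct.

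Abca9 (Entrez gene 217262) is 1 of 5 neighbouring ABCA genes on chromosome 11, in the order Abca8b, Abca8a, Abca9, Abca6 and Abca5, whose substrates are poorly known. Its levels were 6.36, 6.62 and 6.88 on arrays dKO 1, 3 and 5 and 6.06, 5.85 and 5.96 on controls 2, 4 and 6. The groups did not overlap, and the log2 fold change was 0.66 ± 0.10 (SE; adjusted p = 0.018). The other 4 genes of the row did not pass, with log2 fold changes of 0.36 for Abca8a, 0.27 for Abca8b, 0.21 for Abca6 and -0.24 for Abca5. These paralogues are similar in sequence, so probes may read more than 1 of them. Abca9 missed the threshold without control 2, control 6 or dKO 5 (adjusted p up to 0.077), without sex in the model (0.067) and with every cluster of the array tested (0.077).

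Abca2 (Entrez gene 11305), a lipid transporter of late endosomes and lysosomes, was lower. It stood at 6.63, 6.66 and 6.79 on arrays dKO 1, 3 and 5, against 7.05, 7.1 and 7.16 on controls 2, 4 and 6. All 3 arrays labelled dKO lay below all controls, but the difference was small, at -0.41 ± 0.08 (SE; adjusted p = 0.036). The call was lost in each of the 6 fits with 1 array left out (adjusted p from 0.076 to 0.13), without sex in the model (0.061) and with every cluster tested (0.12).

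Abca13, a very large and little studied ABCA protein with one of the brightest clusters among the members, lay close to the threshold. Its values were 8.89, 9.27 and 9.27 against 8.9, 8.58 and 8.59 (controls 2, 4 and 6), so dKO 1 was level with control 2 and the groups overlapped. The log2 fold change was 0.46 ± 0.11 (SE) and the adjusted p was 0.054. It passed with a trended robust prior (0.019), without dim genes (0.042) and, narrowly, after quantile normalization (0.05 when rounded). Abca3, the lipid pump of lung surfactant, was also bright, at -0.24 ± 0.08 (adjusted p = 0.15). The 13 ABCA genes that did not pass ranged from -0.24 to 0.46.

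Genes around cholesterol export were read from a list that also held receptors, lipases and targets of the oxysterol receptor LXR, which switches on Abca1. Of its 14 measured genes 3 rose and 1 fell (28.6% called, beside 7.2% of all genes), with a median of 0.15. Apoe, the apolipoprotein that accepts lipid from Abca1, rose by 0.89 ± 0.15 (SE), its neighbour Apoc1 by 0.74 ± 0.17 and the HDL receptor Scarb1 by 0.43 ± 0.09. Nceh1, which hydrolyses cholesterol esters, fell (-0.84 ± 0.15). The groups overlapped for the 3 that rose, and the 4 calls were each lost when control 2 or control 6 was left out (highest adjusted p 0.14). Those of Apoc1, Scarb1 and Nceh1 were also lost without dKO 3 or dKO 5. Abcg1, the partner of Abca1 that exports cholesterol to HDL, did not pass, at -0.12 ± 0.13, nor did the LXR gene Nr1h3, at -0.02. The other LXR gene, Nr1h2, was not among the genes measured.

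Macrophage markers were also higher on the arrays labelled dKO. Of 14 myeloid genes 10 rose and 0 fell (71.4% called, beside 7.2% of all genes), and the list median was 1.25. Their summed signal was 10.23 to 11.02 log2 on the arrays labelled dKO and 9.32 to 9.49 on the controls, and no myeloid marker was dim. Of 10 fibroblast genes 4 rose (40%), and their sum was 10.45 to 10.78 against 9.69 to 10.11. In the smooth muscle and pericyte list 1 of 8 rose, Tagln (12.5% called). The sums of that list were 10.56 to 10.69 and 9.99 to 10.67. Of 12 endothelial genes 0 passed (sums 12.21 to 12.3 and 12.09 to 12.44). The part of these cells in the rises of Abca1, Abca9 and Apoe was not tested.

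Among 9 ABCB genes 1 rose and 0 fell (11.1% called, beside 7.2% of all genes), and the list median was -0.08. Abcb1b (Entrez gene 18669) is 1 of the rodent genes for P-glycoprotein, the multidrug efflux pump; its neighbour Abcb1a is the other. Abcb1b stood at 6.78, 8.37 and 8.07 log2 on arrays dKO 1, 3 and 5 and at 6.75, 3.89 and 7.3 on controls 2, 4 and 6. The male control was far below every other array, and the groups overlapped because dKO 1, also male, lay below control 6. Within each sex the arrays labelled dKO were higher, by 2.89 in the male pair and by 1.2 ± 0.21 (SE) in the females (2 against 2 arrays; limma adjusted p = 0.032). With sex in the model the log2 fold change was 1.76 ± 0.35 (SE), or 3.39-fold (adjusted p = 0.033). It was lost without sex in the model (0.37), with a trended robust prior (0.066), with every cluster tested (0.11) and without any of controls 2 and 6 and arrays dKO 3 and 5 (up to 0.11). The exact permutation p over the 6 arrays was 0.2, where 3 against 3 allow no less than 0.1; for the other 6 called members it was 0.1.

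Abcb1a, whose promoter is printed above beside that of Abcb1b, did not pass. It stood at 5.9, 6.23 and 6.08 against 6.06, 5.5 and 6.43 (controls 2, 4 and 6), a log2 fold change of 0.07 ± 0.15 (SE; adjusted p = 0.83). The coding sequences of these paralogues are alike, so some probes may read both. Abcb4, the phosphatidylcholine pump next to them on the chromosome, was dim.

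Mitochondrial and other intracellular ABCB genes did not pass. Abcb6, which carries porphyrins, came closest, at 6.84, 6.57 and 6.57 against 6.97, 7.07 and 7.16. Its groups did not overlap, with a log2 fold change of -0.41 ± 0.10 (SE) and an adjusted p of 0.055. It passed with a trended robust prior (0.027), with array weights (0.048) and without dim genes (0.042). The mitochondrial pumps Abcb8 and Abcb10 stood at -0.24 and 0.06, and the lysosomal peptide transporter Abcb9 at -0.08. In a list of 12 genes of haem and iron-sulfur cluster synthesis 0 passed, with a median of -0.05. By limma 3 of them had an unadjusted p under 0.05, as did 4889 of all 22180 genes.

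The peroxisomal and lysosomal ABCD genes had 1 call among 3 members (33.3%, beside 7.2% of all genes). Abcd4 (Entrez gene 19300), which takes part in the release of cobalamin (vitamin B12) from lysosomes, was 1.94-fold lower. It stood at 5.75, 5.43 and 5.65 on arrays dKO 1, 3 and 5, against 6.75, 6.38 and 6.57 on controls 2, 4 and 6. Every array labelled dKO lay below every control, and the log2 fold change was -0.96 ± 0.13 (SE; adjusted p = 0.012). The fall was -1.12 in females and -0.63 in the male pair. The fold change was -0.86 without control 2 and -0.96 without control 6, where it missed the threshold (adjusted p 0.053 and 0.06), as it did with every cluster tested (0.061).

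Abcd3, which imports branched and long fatty acids and bile acid intermediates into peroxisomes, had one of the brightest clusters of the members. Its groups did not overlap (10.41, 10.19 and 10.26 against 10.43, 10.56 and 10.49), but the difference of -0.20 ± 0.08 (SE) did not pass (adjusted p = 0.18). Abcd2 stood at 0.05. In the list of peroxisomal import and oxidation genes 1 of 12 fell and none rose (8.33% called, beside 7.2% of all genes). The gene that fell was the bile acid and branched-chain oxidase Acox2 (-0.53 ± 0.11, SE). The list's median was -0.19, and 7 of the 12 had arrays labelled dKO that lay wholly below the controls. Of all 22180 genes 2395 did so. The call of Acox2 was lost with any 1 array left out (adjusted p up to 0.13).

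None of the 10 ABCC genes, the multidrug resistance proteins and the sulphonylurea receptors, passed between the genotypes, and the median was 0.09. By limma 3 had an unadjusted p under 0.05, beside 4889 of all 22180 genes. Abcc2, the pump that secretes conjugates across the brush border, had a bright cluster and stood at 10.07, 9.92 and 9.93 against 9.48, 10.04 and 9.49. The female controls were the low arrays, and the log2 fold change of 0.31 ± 0.11 (SE) did not pass (adjusted p = 0.15). Abcc4, another brush border pump, which exports cyclic nucleotides, prostaglandins and urate, stood at 0.22 ± 0.11 (adjusted p = 0.31). Abcc5, Abcc1, Abcc10 and Abcc6 ranged from -0.03 to 0.27. The sulphonylurea receptors Abcc8 and Abcc9 stood at -0.32 and -0.16, and their potassium channel pores Kcnj8 and Kcnj11, a list with 0 of 2 called, at -0.14 and -0.03.

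The E and F subfamilies held no called gene. Abce1, which splits ribosomes after termination, had values of 9.79, 9.6 and 9.75 against 9.6, 9.71 and 9.59, a difference of 0.08 ± 0.08 (SE). The translation-associated Abcf1, Abcf2 and Abcf3 stood between 0.01 and 0.07. Of 7 genes of ribosome recycling and translation control 0 passed (0 rose and 0 fell, and 0 had an unadjusted p under 0.05 by limma), with a median of -0.04.

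Of 6 ABCG genes none passed, and the median was -0.13. By limma 1 had an unadjusted p under 0.05, beside 4889 of all 22180 genes. Abcg2, the urate and drug pump of the brush border, had one of the brightest clusters. It stood at 9.92, 9.61 and 9.63 on arrays dKO 1, 3 and 5 and at 10, 10.05 and 9.9 on controls 2, 4 and 6. Array dKO 1 lay just above control 6, so the groups overlapped, and the difference was -0.26 ± 0.08 (SE; adjusted p = 0.12). It passed with a trended robust prior (0.043). The sterol pumps Abcg5 and Abcg8 were dim.

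Among the 15 Slco genes 2 fell and none rose (13.3% called, beside 7.2% of all genes). By limma 3 had an unadjusted p under 0.05, beside 4889 of all 22180 genes. Slco4a1 (Entrez gene 108115), an organic anion transporter that carries thyroid hormones and prostaglandins, stood at 5.61, 6.28 and 5.98 log2 on arrays dKO 1, 3 and 5. Controls 2, 4 and 6 stood at 7.25, 6.55 and 7.12. The groups did not overlap, and in both groups the male array was the lowest. The log2 fold change was -1.02 ± 0.11 (SE), or 2.02-fold lower (adjusted p = 0.0059), with -1.05 in females and -0.94 in the male pair. It passed in 6 of 6 fits with 1 array left out (highest adjusted p 0.038), but without sex in the model it did not (0.076).

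Slco1a6 (Entrez gene 28254), a kidney organic anion transporter of the rodent Slco1 cluster, was 1.74-fold lower. Arrays dKO 1, 3 and 5 had 9.67, 9.47 and 9.13, and controls 2, 4 and 6 had 10.2, 10.18 and 10.3. The 3 controls lay within a narrow range above all arrays labelled dKO (9.43 ± 0.27 against 10.23 ± 0.06; SD, n = 3). The log2 fold change was -0.80 ± 0.13 (SE; adjusted p = 0.021). It was lost without control 2, control 6 or dKO 3 (adjusted p up to 0.088) and with every cluster tested (0.085). The other 5 Slco1 genes ranged from -0.01 to 0.58 and did not pass. Probes of the similar Slco1a genes may read more than 1 of them.

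Proximal tubule markers were lower beside Slco1a6. Of 10 such genes 3 fell, Slc5a2, Miox and Slc34a1 (30% called, beside 7.2% of all genes). The list's summed signal was 13.94 to 14.52 log2 on the arrays labelled dKO and 14.66 to 14.73 on the controls. The basolateral organic anion uptake carriers Slc22a6 and Slc22a8 of that list did not pass, at 0.09 ± 0.08 and -0.23 ± 0.18 (SE). The part of proximal tubule content in the fall of Slco1a6 was not tested.

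The remaining Slco genes gave no call. Slco2a1, the prostaglandin uptake carrier, had a bright cluster at 8.58, 8.39 and 8.53 against 8.76, 8.46 and 8.72, a difference of -0.15 ± 0.11 (SE; adjusted p = 0.50). Of 11 genes of prostaglandin synthesis, breakdown and reception 2 rose and 0 fell (18.2% called, beside 7.2% of all genes). Ptgs2, the inducible cyclooxygenase, rose by 1.07 ± 0.19 and the synthase Ptges by 0.43 ± 0.08, with overlapping groups in both. The call of Ptgs2 held only without dKO 5 (adjusted p otherwise up to 0.093), and that of Ptges was lost in each fit with 1 array left out (up to 0.11). Slco2b1 stood at 0.21 and Slco3a1 at 0.08. Slco5a1, Slco1b2, Slco1c1, Slco1a5 and the 3 Slco6 genes were dim.

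**Figure D2:**
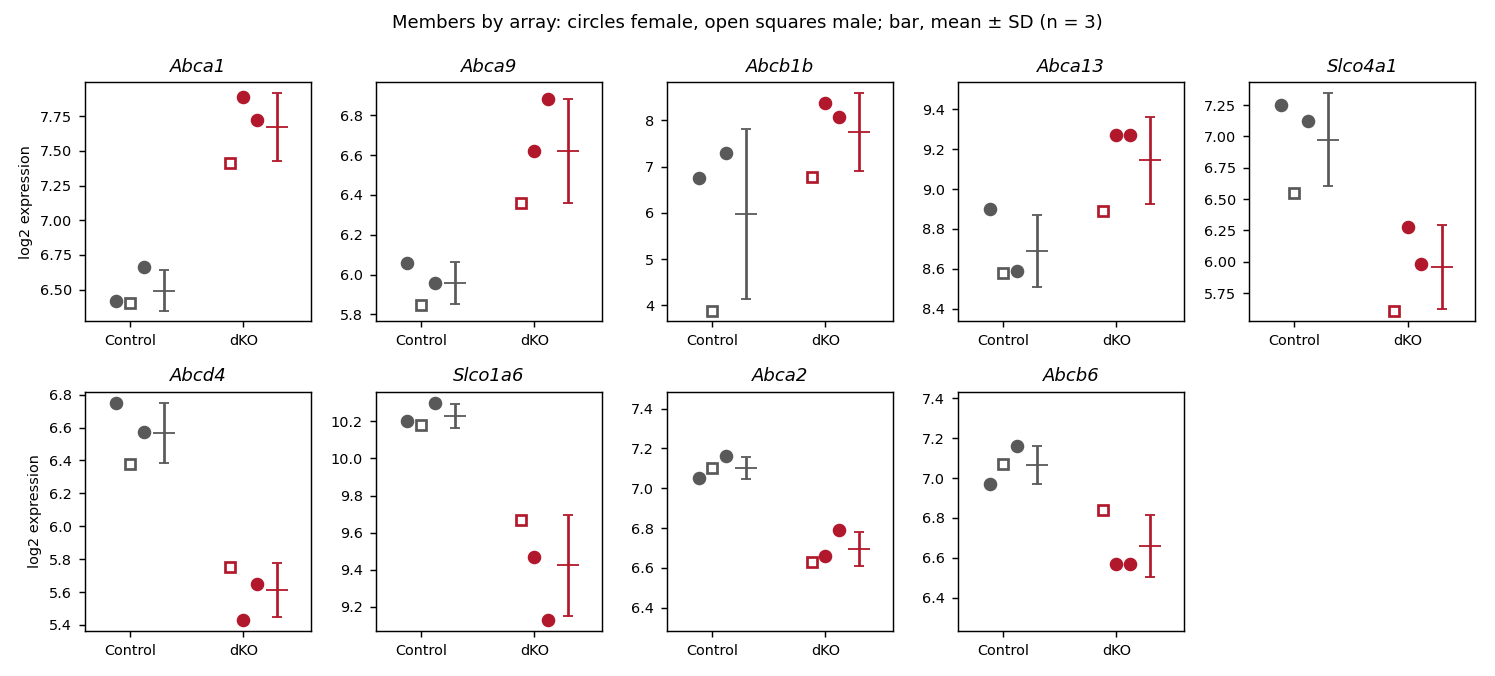
Log2 expression on each array for the 7 transporter genes that passed and for Abca13 and Abcb6, which lay closest to the threshold, controls in grey and arrays labelled dKO in red. Circles are females, open squares males, and bars the mean ± SD of 3 arrays; each panel has its own axis. Abca1, Abca9, Slco4a1, Abcd4, Slco1a6, Abca2 and Abcb6 show groups that do not overlap, and the male control of Abcb1b sits at 3.89.

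ABC genes whose symbols lack the Abc prefix fell outside the 63 and were read from a separate list of 3, all of which rose. Tap1 and Tap2 form the pump that carries peptides into the endoplasmic reticulum for MHC class I, and Cftr is the ABC protein that works as a chloride channel. Tap1 stood at 7.25, 6.83 and 7.11 against 6.27, 6.39 and 6.34 (0.73 ± 0.10, SE; adjusted p = 0.013). Tap2 stood at 5.58, 5.58 and 5.68 against 5.1, 5.04 and 5.1 (0.53 ± 0.08; 0.014). Cftr stood at 5.36, 5.18 and 5.45 against 4.68, 4.53 and 4.08 (0.90 ± 0.16; 0.026). The groups did not overlap for any of the 3. The calls of Tap1 and Tap2 ended in 3 of 6 fits, those without control 2, control 6 or dKO 5 (highest adjusted p 0.061 and 0.062), and that of Cftr in 5, all but the one without control 2 (up to 0.094).

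Tap1 and Tap2 also belong to a list of 13 genes of peptide loading, of which 7 rose and 0 fell. The share called was 53.8%, beside 7.2% of all genes, and the list median was 0.43. Without the Tap genes 5 of 11 rose. These were the immunoproteasome subunits Psmb10 (0.84 ± 0.12, SE), Psmb8 (0.53 ± 0.10) and Psmb9, the Tap-binding chaperone Tapbp (0.55 ± 0.08) and the proteasome activator Psme1 (0.49 ± 0.09). In 8 of these 11 the arrays labelled dKO lay wholly above the controls, as they did in 2605 of all 22180 genes. Leaving out control 2 or control 6 ended each of the 7 calls (highest adjusted p 0.14). The rise of the myeloid markers given above stands beside these genes too, and its part was not tested.

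Regulators and anchors of the transporters gave 2 calls. Of 14 nuclear receptors and transcription factors 1 fell and none rose (7.14% called, beside 7.2% of all genes), with a median of -0.05. The faller was Nr1i2, the pregnane X receptor that induces drug pumps in liver, at 4.8, 4.95 and 5.1 against 5.91, 5.12 and 5.79 (-0.66 ± 0.12, SE; adjusted p = 0.029). Of 6 PDZ and ezrin-type scaffold genes 1 fell (16.7% called). This was Pdzk1ip1, a small membrane protein that binds the scaffold Pdzk1 (-0.48 ± 0.10, SE, limma adjusted p = 0.033). Pdzk1 itself was not among the genes measured. With 14 and 6 genes, 1 call each is not read as a result for the list. Both calls were lost without any of controls 2 and 6 and arrays dKO 3 and 5 (highest adjusted p 0.11 and 0.12).

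**Figure D3:**
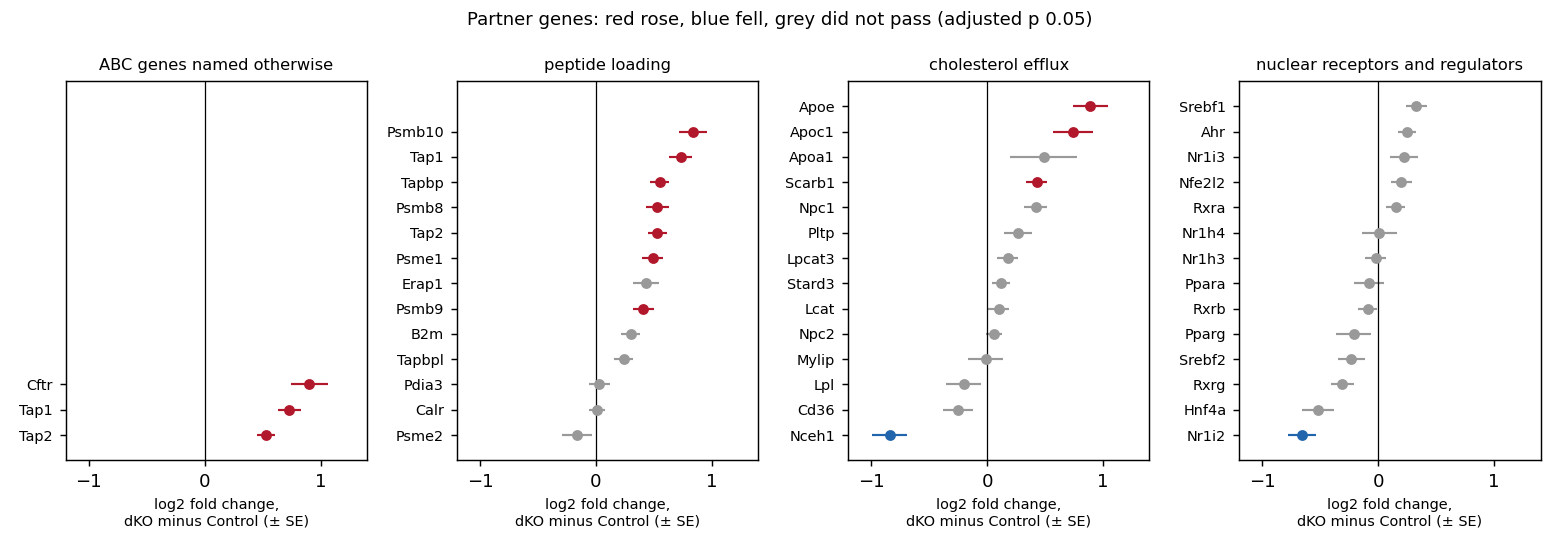
Log2 fold change (point) and standard error (bar) for 4 lists: the ABC genes named otherwise, MHC class I peptide loading, cholesterol efflux, and nuclear receptors with other regulators. Red genes rose, blue fell and grey did not pass; Tap1 and Tap2 stand in the first and second panels. In the peptide loading panel 7 of 13 genes are red, and in the regulator panel Nr1i2 is the single coloured gene.

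Sex also separated several transporters. Between the 2 male and 4 female arrays, with genotype in the model, 5 of 63 members passed (7.94%, beside 1.87% of all genes), 2 higher and 3 lower in males (1.25% and 0.618% of all genes). Slco1a1 (Entrez gene 28248), which carries steroid and other conjugates, stood at 10.12 and 10.13 log2 on the males dKO 1 and Control 4. The females dKO 3, dKO 5, Control 2 and Control 6 stood at 4.23, 2.8, 2.74 and 3.08, 3 of them below the dim limit. With those 3 females set to the limit and dKO 3 as measured, the female mean was 3.5 log2. The male mean was at least 98.8-fold higher than that. The measured difference was 6.91 ± 0.38 (SE, limma adjusted p = 0.00059), and it passed in 6 of 6 fits with 1 array left out. Between the males of the 2 genotypes it differed by -0.02, and the genotype effect was 0.40 ± 0.35 (adjusted p = 0.59).

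Slco3a1, an organic anion transporter for prostaglandins and thyroxine, was also higher in males. It stood at 8.09 and 8.25 on dKO 1 and Control 4 and between 6.92 and 7.31 on the females, a difference of 1.02 ± 0.12 (SE; adjusted p = 0.016). The sexes did not overlap. The call was lost without dKO 3, Control 4 or Control 6 (highest adjusted p 0.11) and with every cluster tested (0.067).

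The members lower in males were the efflux pumps Abcc3, Abcb1b and Abcc4. Abcc3, the basolateral pump for glucuronides, stood at 5.92 and 4.14 on the males dKO 1 and Control 4 and between 7.38 and 7.63 on the females. The difference was -2.51 ± 0.38 (SE; adjusted p = 0.034). Abcc4 stood at 7.81 and 7.4 on the males and between 8.38 and 8.72 on the females (-0.96 ± 0.12; 0.018). For Abcb1b the difference was -2.29 ± 0.37 (0.039), and the sexes overlapped because dKO 1 and Control 2 were level. The call of Abcc3 was lost without control 2, control 6, dKO 3 or dKO 5 (highest adjusted p 0.11), that of Abcc4 without either male, dKO 5 or control 6 (0.12), and that of Abcb1b without any array but dKO 1 (0.12). With a trended robust prior Abcc3 and Abcb1b missed the threshold (0.059 and 0.067). Abcc3, Abcc4 and Abcb1b all missed it without genotype in the model (0.12, 0.088 and 0.45) and with every cluster tested (0.11, 0.071 and 0.12). The size rested on which male was kept: the difference in Abcc3 was -1.55 without Control 4 and -3.48 without dKO 1, and that in Abcb1b was -1.44 and -3.13. Late proximal tubule markers also split by sex: their summed signal was 13.44 and 13.65 log2 on the males and 11.73 to 12.49 on the females. Of the 9 genes of that list 5 were higher and 1, Slc22a13, was lower in males (-0.70 ± 0.09, SE). The share called by sex was 66.7%, beside 1.87% of all genes. On the arrays labelled dKO 3 of the 9 fell (33.3% called, beside 7.2% of all genes). The part of this list in the sex differences was not tested.

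Whether the genotype difference depended on sex was tested with an added term. By limma's genotype by sex term 0 of 63 members had an adjusted p under 0.05 (1 of all genes, 0.00451%), and 9 had an unadjusted p under 0.05 (14.3%, beside 6.99% of all genes). There was 1 male per group, so the male value is a single pair. Abcc3 differed by 1.78 in the male pair and by -0.16 ± 0.11 (SE) in the females, and the genotype by sex term was 1.94 ± 0.18 (SE; adjusted p = 0.10). With a trended robust prior it passed (adjusted p = 0.022). Abcb1b had a term of 1.69 ± 0.36 (0.53). Abcc4 and Slco3a1 had terms of 0.28 and -0.36, and Slco1a1 of -0.62.

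The values of Slco1a4 and Slco4c1, named after they were seen, follow other patterns. Slco1a4, a carrier of bile salts and cardiac glycosides, was high on a single array: 6.87 on dKO 1 against 4.52 to 5.03 on the other 5. Its genotype by sex term was 1.89 ± 0.18 (SE; adjusted p = 0.10), and it rests on that array. Slco4c1, the basolateral digoxin carrier of the kidney, stood at 8.25, 8.26 and 7.99 on arrays dKO 1, 3 and 5, at 8.35 on the male control and at 7.08 and 7.02 on the female controls. The female controls were thus the low arrays. In females it was 1.07 ± 0.12 (SE) higher on the arrays labelled dKO (2 against 2 arrays; limma adjusted p = 0.011, where 5.63% of all genes passed), and in the male pair it differed by -0.10. With all 6 arrays it did not pass (0.68 ± 0.23; adjusted p = 0.14), nor did its genotype by sex term of -1.17 ± 0.21 (adjusted p = 0.44).

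**Figure D4:**
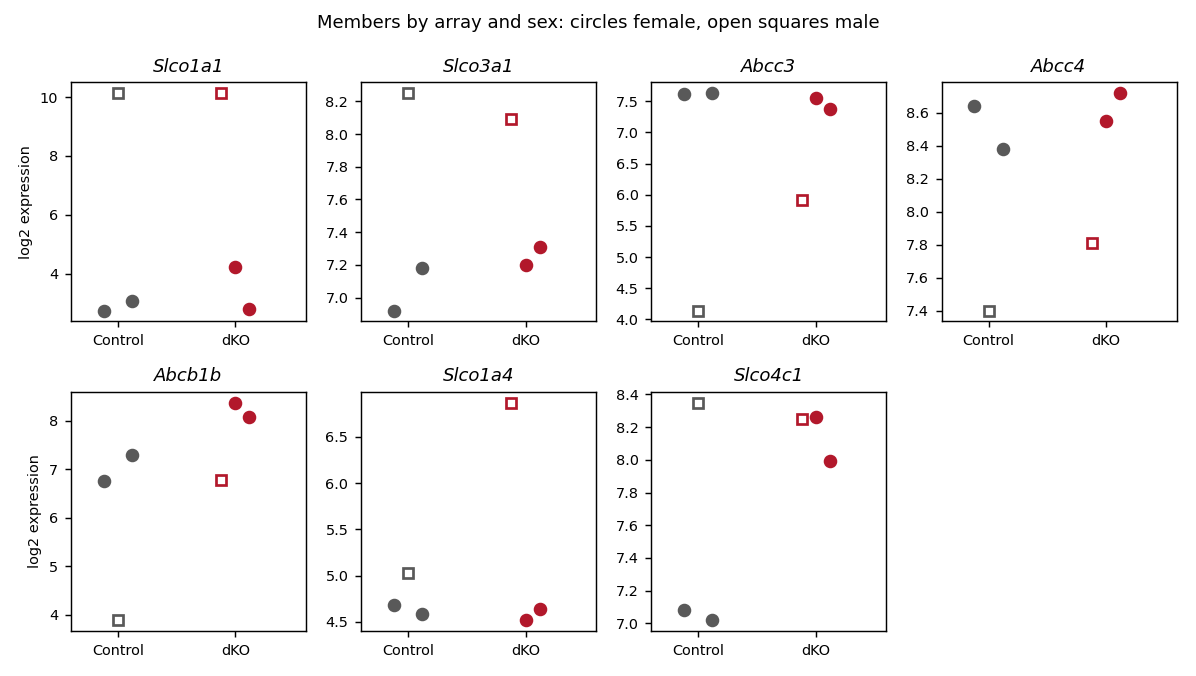
Log2 expression on each array for the 5 transporter genes that differed by sex and for Slco1a4 and Slco4c1, with females as circles and males as open squares, controls in grey and arrays labelled dKO in red; each panel has its own axis. The males of Slco1a1 sit at 10.12 and 10.13 with every female at 4.23 or below, and the female controls of Slco4c1 sit at 7.08 and 7.02 below the other 4 arrays.

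**Figure D5:**
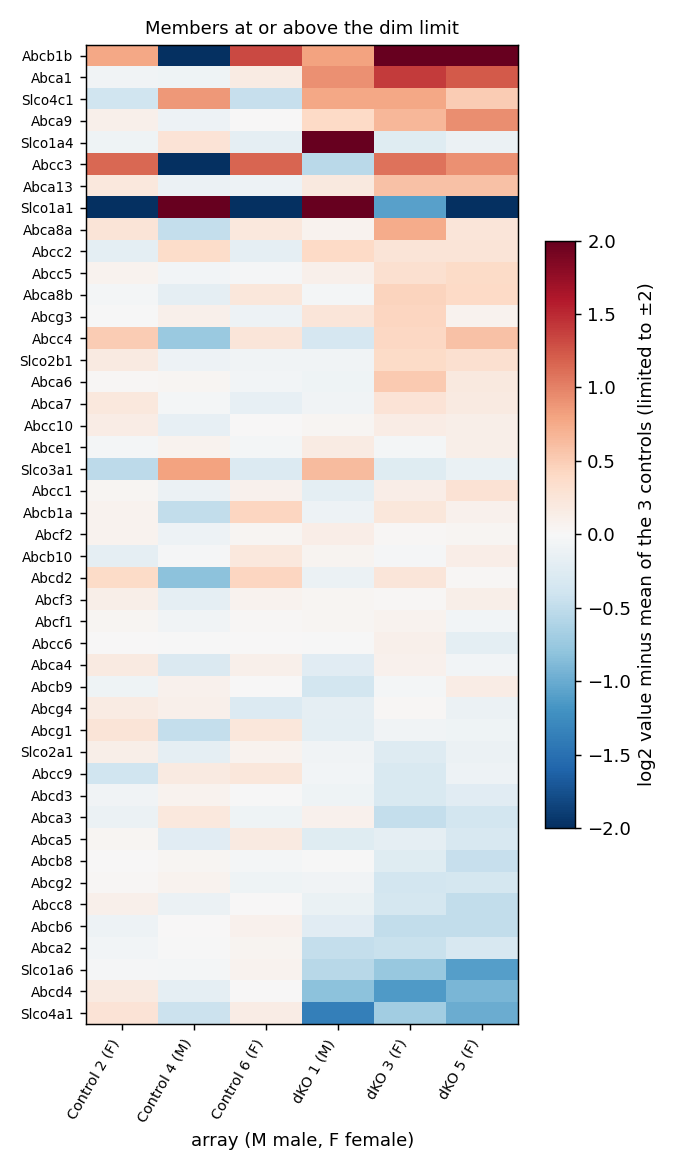
Log2 value minus the mean of the 3 controls for the 45 members at or above the dim limit (rows, ordered by the genotype fold change) on the 6 arrays (columns, controls left, M male, F female); colours are limited to ±2. The sex-dependent rows, among them Slco1a1, Slco3a1 and Abcc3, differ in shade between the male and female arrays within each group, and Abca1, Abca9, Slco1a6, Abcd4, Abca2 and Slco4a1 differ in shade between the groups.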

How the data were processed

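Per the labels, 400 ng of total RNA entered each labelling. The submitters' processing notes name RMA, R 3.4.0 and limma, without roles. The authors deposited log2 values for 41345 transcript clusters, which were not normalized again. The platform annotation gave 23521 clusters 1 symbol, 1814 several and 16010 none; RefSeq identifiers (GRCm38.p6) matched 23328 and changed 0 symbols. No cluster with several symbols held a member. Each gene was represented by its brightest cluster (mean of the 6 arrays).

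Differences were fitted with limma 3.58.1 in R 4.3.3 over all 22180 genes, with genotype and sex as terms (3 residual degrees of freedom) and Benjamini-Hochberg adjustment; a further fit had a genotype by sex term (2 residual degrees of freedom). Errors marked SE are limma's moderated standard errors. Cell-type sums are log2 of the summed linear signal. The fit was tested on simulated data drawn from limma's own fitted model. That does not test whether the model holds for these arrays. Promoters were aligned with Biopython 1.88. The named genes are Pax2, Pax8, all members called by genotype or sex, those with an adjusted p from 0.05 to 0.1, the 8 brightest members, and up to 5 called genes per partner list; other names were chosen after their values were seen. Clusters of different genes hold different probes, so brightness is no ranking of transcript amounts. The members and lists were chosen with earlier results of these data known. The 6 arrays limit the precision.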

Additional observations from a re-analysis of the deposited data

How the results depend on the processing

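Called members between genotypes numbered 7. They fell to 3 without sex in the model and to 2 with every cluster tested (Abca1 and Slco4a1 kept), and ranged from 2 to 7 with 1 array left out: 2 without control 2 or control 6, 4 without dKO 3 or dKO 5. Leaving out either male gives the females-only fit, with 7 called, 6 of them shared. Counts over all genes were 471 without sex, 302 with every cluster and 344 to 1249 with 1 array left out, beside 1596. The partner lists, counted under the alternatives after seeing the data, had 17 called genes, 5 without sex, 0 with every cluster (Tap1 among those lost) and 0 to 14 with 1 array left out. Members called by sex numbered 5, 1 with every cluster, 2 without genotype in the model and 1 (without control 6) to 6 (without dKO 1) with 1 array left out. Members called for the genotype by sex term numbered 0, and 1 (Abcc3) with a trended robust prior. The trended prior, weighted arrays, quantile or median scaling, averaged clusters and leaving out dim genes gave 7 to 9 members by genotype and 5 or 6 by sex. Of 420 single-gene values under alternatives 353 kept direction and side of the threshold, 54 lost a call, 8 gained one and 5 changed sign. Those 5 were genotype differences that passed in no fit: Abcc3 (0.49) was -0.16 in females only and -0.16 (either male) to 0.72 with 1 array left out, Slco1a1 (0.40) -0.07 (without dKO 3) to 0.75, and Slco3a1 (0.08) -0.03 (without control 2) to 0.20. The cause of these changes was not tested. The 420 values are not all separate: the females-only fit, the fit without dKO 1 and the fit without Control 4 give the same genotype values. No paired analysis was possible because the groups share no replicate number.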
